A study of Homo sapiens with 3 samples.

Results

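The SLC25 carriers are the proteins that move metabolites across the inner mitochondrial membrane, and their transcripts were read in MCF10A cells, a line of human breast epithelium that grows without limit and is not tumorigenic. The family was taken as every protein-coding gene whose GENCODE release 44 symbol is SLC25A followed by a number. This gave 48 genes of the 20028 protein-coding genes in a table of 62754 genes. RNA-seq was done on 3 replicates of 1 condition, untreated cells with an empty vector genotype, all labelled as batch 1. There is no second condition, so no group was compared with another, no test was run, and nothing in the labels says whether the replicates were separate cultures. The paper's text does not mention the empty vector.

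The authors deposited TPM values, a unit in which reads are divided by gene length and scaled to a fixed total, so that levels of different genes can be set side by side. With the annotated lengths, all values above 0 were whole multiples of 1 step to within 0.01, which returned 15273329, 15446347 and 11166546 reads on annotated genes in replicates 1, 2 and 3. The labelled cell type was checked against its markers. All 4 epithelial markers and all 5 basal markers were at or above 1 TPM, with KRT5, a basal keratin, at 6612 ± 890 TPM (SD, n = 3). Of 4 luminal markers, GATA3 at 12.8 and FOXA1 at 1.11 TPM were above it, and ESR1 and PGR were at 0.0345 and 0.00485 TPM. The 3 immune and 2 adipocyte markers were below 1 TPM. Of the immune marker CD68, 94.9% of the canonical transcript lies in same-strand exons of ENSG00000264772, so its reads could be lost and its level cannot be read. Of 4 fibroblast markers, DCN at 9.05 and COL1A1 at 4.96 TPM were above it and COL1A2 had 0 reads, and of 3 endothelial markers only PECAM1, at 1.77 TPM, was above it, with CDH5 at 0 reads. The summed fibroblast markers lay between 13.6 and 14.8 TPM in the replicates. The part of other cells in the carrier levels was not tested.

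The inner membrane is closed to most charged molecules, and each carrier binds its substrate on one side and releases it on the other, in many cases in exchange for a counter-substrate. The carriers supply ADP and phosphate to ATP synthase, send ATP and citrate to the cytosol, complete the malate-aspartate shuttle and bring in the cofactors, amino acids and iron that matrix enzymes need. They are encoded by nuclear genes, made in the cytosol and inserted by a dedicated import route. In growing epithelial cells, carrier-dependent export of citrate provides carbon for lipid synthesis, and carriers for aspartate and glutamate link the matrix to nucleotide synthesis and redox balance. None of these roles was measured in these cells.

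Of the 48 carriers, 36 (75.0%) had a mean of at least 1 TPM, the cutoff for an expressed gene in the study, against 56.7% of all protein-coding genes. Each of the 36 reached this cutoff in all 3 replicates. At 10 TPM, 29 carriers (60.4%) were reached against 41.8% of protein-coding genes, while at 100 TPM the 4 carriers (8.33%) stood beside 7.87%. A further 25 carriers lay between 10 and 100 TPM, 7 between 1 and 10 TPM and 12 below 1 TPM. Among genes at or above 1 TPM, the median mean was 27.5 TPM for carriers and 24.9 TPM for protein-coding genes. Carriers were thus more often above the cutoff than protein-coding genes as a whole, and once above it their median level was close to the general one. The highest carrier was 429 times the lowest of the 36.

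**Figure D1:**
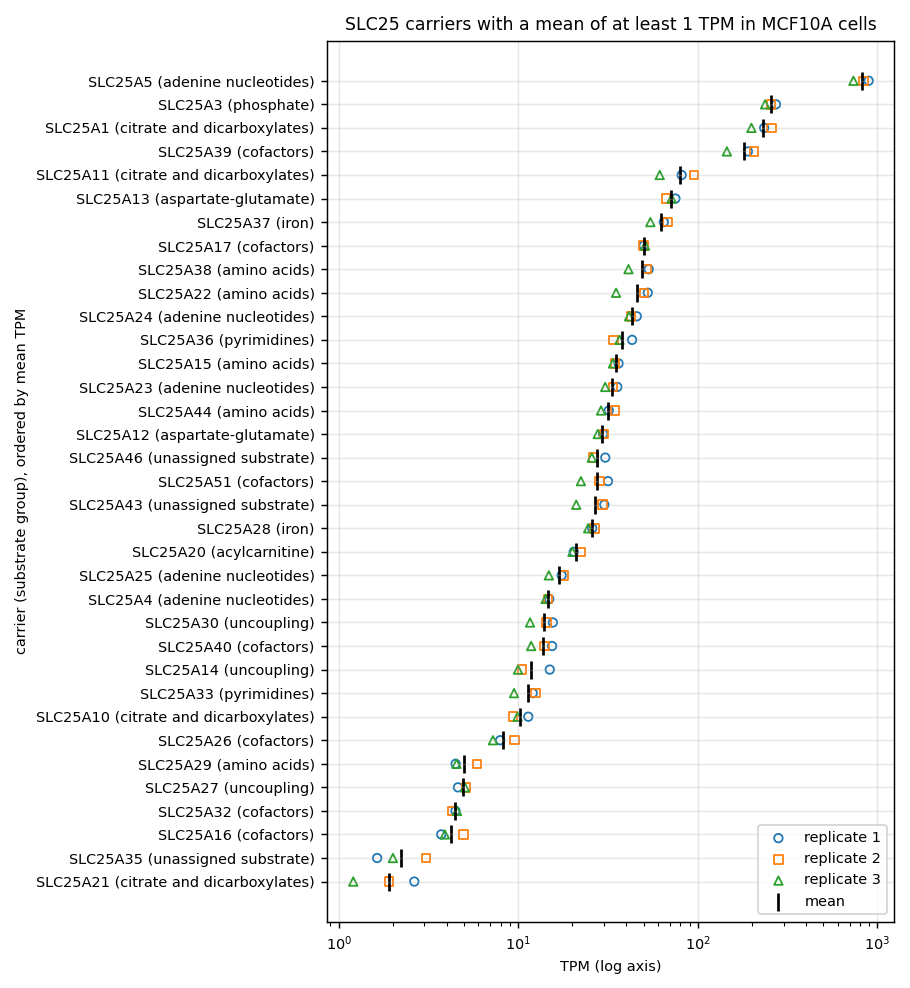
The SLC25 carriers with a mean of at least 1 TPM, 35 of 36 drawn, ordered from the highest mean down, with TPM on a log axis. Open symbols are the 3 replicates and the black bar is their mean. SLC25A5 stood alone at 821 TPM, SLC25A3, SLC25A1 and SLC25A39 lay between 180 and 255 TPM, and SLC25A35 and SLC25A21 at the bottom had the widest spread between replicates.

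Summed over the family, the carriers held 2491, 2441 and 2082 TPM in replicates 1, 2 and 3, or 0.249%, 0.244% and 0.208% of all TPM. Replicate 3 had the lowest sum. As a share of the TPM of protein-coding genes only, the 3 values were 0.272%, 0.272% and 0.262%, where protein-coding genes held 915250, 897893 and 796210 TPM. The 4 highest carriers, SLC25A5, SLC25A3, SLC25A1 and SLC25A39, held 63.5 ± 0.312% of the family sum (SD, n = 3). Grouped by substrate, carriers of adenine nucleotides held 39.7 ± 0.964%, those of citrate and dicarboxylates 13.7 ± 1.01%, those of cofactors 13.6 ± 0.682% and the phosphate carrier 10.9 ± 0.460%. Amino acid carriers held 7.14 ± 0.182%, aspartate-glutamate carriers 4.31 ± 0.413% and iron carriers 3.76 ± 0.118%. The remaining groups, pyrimidines, uncoupling, acylcarnitine and carriers with no substrate assigned here, held between 0.900% and 2.48% each. By the deposited values, the groups of citrate and of cofactors did not differ beyond their spread, and adenine nucleotides were the largest group in every replicate. Both statements depend on gene length, which in the deposited values is that of the longest transcript. By the median length of a gene's protein-coding transcripts, phosphate held 25.8 ± 1.18% and was above adenine nucleotides, at 23.6 ± 0.641%, in every replicate (SD, n = 3 each). Cofactors then held 16.3 ± 1.06% and citrate and dicarboxylates 9.77 ± 0.840% (SD, n = 3 each). For some carriers, SLC25A22, SLC25A23, SLC25A27, SLC25A30, SLC25A38 and SLC25A39 among them, that median is shorter than the gene's own coding sequence. Their levels by that length may be too high. By the canonical transcript adenine nucleotides stayed first, at 35.9 ± 1.05%, and cofactors, at 17.4 ± 0.884%, were above citrate and dicarboxylates, at 13.5 ± 0.976%, in every replicate. Every adenine nucleotide share here holds no SLC25A6, a member whose level cannot be read from these values. The order of phosphate and adenine nucleotides by the median length can therefore not be told.

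**Figure D2:**
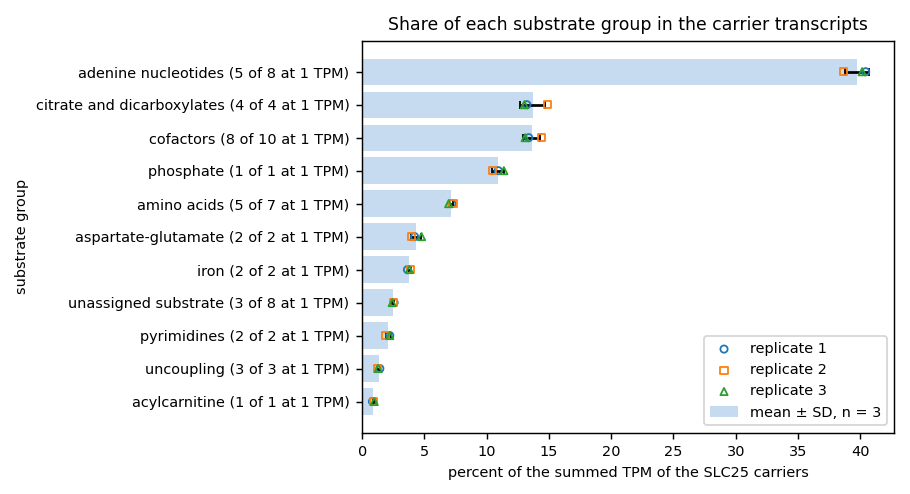
Percent of the summed TPM of the 48 carriers held by each of 11 substrate groups. Bars are means with SD as error bars (n = 3), symbols are replicates, and the labels give how many members of each group reached 1 TPM. The adenine nucleotide group held 39.7% by the deposited values, followed by citrate and dicarboxylates and by cofactors with 13.7% and 13.6%, an order that changed with the gene length used. The adenine nucleotide share holds no SLC25A6, whose level could not be read.

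Adenine nucleotides are carried by the ADP/ATP carriers, which exchange matrix ATP for cytosolic ADP, and by the ATP-Mg/phosphate carriers, which change the total amount of nucleotide in the matrix. SLC25A5 (ANT2, ENSG00000005022, hg38 chromosome X from 119468422 to 119471396, plus strand) is the ADP/ATP carrier known from proliferating cells. It was measured at 893, 835 and 735 TPM, from 6135, 5891 and 4296 reads, with a mean of 821 ± 79.9 TPM (SD, n = 3). It ranked 129th of the protein-coding genes, above 99.4% of them. SLC25A4 (ANT1, ENSG00000151729, chromosome 4 from 185143266 to 185150382, plus strand), the form typical of heart and skeletal muscle, was measured at 14.9, 14.7 and 14.2 TPM, from 346, 351 and 281 reads. SLC25A5 was 60.02, 56.8 and 51.8 times SLC25A4 in the 3 replicates, a difference of 5.81 ± 0.11 on the log2 scale (SD, n = 3). Per base of coding sequence, where both genes have 894 bases, the ratio was 16.6, since the deposited TPM divides the reads of SLC25A4 by a transcript of 4415 bases and those of SLC25A5 by one of 1307. SLC25A5 was far above SLC25A4 by either length.

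SLC25A31 (ANT4, ENSG00000151475, chromosome 4), a form known from the testis, had 0 reads in every replicate, which allows up to 0.315, 0.307 and 0.370 TPM at 3 reads. SLC25A6 (ANT3, ENSG00000169100), an ADP/ATP carrier known from many tissues, also had 0 reads, on each of its rows in the table. It lies in the pseudoautosomal region, from 1386152 to 1392113 on both X and Y. The 5962 bases of the gene differed at 0 positions between X and Y in hg38, so a read of this gene matches 2 places equally well. Of 1352 windows of 100 bases along its canonical transcript, 78.7% were found at another place of the genome, and with the Y copy left out 0 were. Within 1 exon lie 1055 of the 1352 windows, and the others span exon junctions, which the genome does not hold as such. All 18 protein-coding genes annotated in identical copies on X and Y had 0 reads on both copies. The level of SLC25A6 cannot be read from this table, and the fate of its reads was not tested. Within what the table could read, SLC25A5 held 98.4%, 98.3% and 98.1% of the ADP/ATP carrier TPM and SLC25A4 the rest, a share that holds no SLC25A6. The share also rests on the transcript lengths of 1307 and 4415 bases. It is lower per coding base, where SLC25A5 was 16.6 times SLC25A4.

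The separation of SLC25A5 from SLC25A4 and SLC25A31 rests on bases that differ between these genes, so the coding stretch in which SLC25A5 and SLC25A6 were most alike is shown. It covers 90 bases of exon 1 in each gene, read 5′ to 3′ from the GENCODE release 44 transcripts. Capitals mark bases that differ from SLC25A5. In hg38 the stretch lies at chrX:119468534-119468623 on the plus strand for SLC25A5, chrX:1391902-1391991 on the minus strand for SLC25A6, chr4:185143391-185143480 on the plus strand for SLC25A4 and chr4:127730600-127730689 on the plus strand for SLC25A31.
SLC25A5: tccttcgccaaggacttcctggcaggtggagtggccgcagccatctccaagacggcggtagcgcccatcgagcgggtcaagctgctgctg
SLC25A6: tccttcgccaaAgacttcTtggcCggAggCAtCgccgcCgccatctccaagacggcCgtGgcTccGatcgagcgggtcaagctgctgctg
SLC25A4: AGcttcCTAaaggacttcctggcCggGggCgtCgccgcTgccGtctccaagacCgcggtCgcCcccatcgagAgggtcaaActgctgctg
SLC25A31: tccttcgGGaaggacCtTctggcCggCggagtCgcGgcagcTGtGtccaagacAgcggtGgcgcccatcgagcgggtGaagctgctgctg

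In this stretch SLC25A6 differed from SLC25A5 at 12 of 90 bases, SLC25A4 at 16 and SLC25A31 at 14. The stretch was chosen by SLC25A5 and SLC25A6 only, so SLC25A4 and SLC25A31 may be closer to SLC25A5 elsewhere. Over the whole coding sequence, SLC25A5 was 78.7% identical to SLC25A6, 77.2% to SLC25A4 and 63.3% to SLC25A31, and the longest run that SLC25A5 and SLC25A6 shared was 29 bases. No window of 100 bases of SLC25A5 was found elsewhere in the genome, although 9.78% of its windows of 50 bases were, mainly in the non-coding gene LINC01445 and the pseudogene SLC25A5P3, both with 0 reads. The 9 annotated pseudogenes of SLC25A5 held 1 read and the 6 of SLC25A6 held 4 reads in all replicates together. Few reads thus stood on the pseudogenes of either gene.

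SLC25A5 and SLC25A4 also differ in the sequence before their start, shown here because their levels differed most among the paralog pairs compared in which both genes were above 1 TPM. Each line is the 250 bases before the RefSeq start on GRCh38.p14, read 5′ to 3′ on the plus strand, at chrX:119468194-119468443 and chr4:185143016-185143265. The RefSeq start of SLC25A5 lies 22 bases inside the GENCODE gene, and that of SLC25A4 is the GENCODE start. Capitals mark matches, on either strand, to 5 letter strings, the CCAAT box (CCAAT), the GC box (GGGCGG), an ETS core (CCGGAAG), an NRF1 core (GCATGCGC) and the TATA box (TATAAA).
SLC25A5: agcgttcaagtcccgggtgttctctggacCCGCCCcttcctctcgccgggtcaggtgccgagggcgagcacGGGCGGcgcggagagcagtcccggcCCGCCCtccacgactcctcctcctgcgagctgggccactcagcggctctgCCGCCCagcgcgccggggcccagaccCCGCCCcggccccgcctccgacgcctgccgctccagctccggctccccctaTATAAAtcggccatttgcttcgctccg
SLC25A4: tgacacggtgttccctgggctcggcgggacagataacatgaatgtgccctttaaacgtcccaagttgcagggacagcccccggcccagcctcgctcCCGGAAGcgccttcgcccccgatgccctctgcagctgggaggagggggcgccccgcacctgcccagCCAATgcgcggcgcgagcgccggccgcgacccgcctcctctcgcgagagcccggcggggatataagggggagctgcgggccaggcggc

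The SLC25A5 promoter held 5 GC boxes and 1 TATA box, and the SLC25A4 promoter held 1 CCAAT box and 1 ETS core. Promoters of 300 bases, 250 before and 50 after the start, were found for 40 of the 48 carriers and 30 of the 36 at or above 1 TPM. A GC box was found in 22 of these 30 (73.3%), in 6 of the 10 carriers below 1 TPM and in 44.7% of 27195 promoters in all. These 27195 were not limited to protein-coding genes, so they are a wider set than the background used elsewhere here. An ETS core was found in 7 of the 30 (23.3%), in 1 of the 10 and in 10.7% of all promoters. The CCAAT box was found in 15 of the 30 against 35.7%, the TATA box in 2 (6.67%) against 12.0%, and the NRF1 core in 0 of the 40 against 3.28%. The median GC content was 69.0% for the 30 carriers, 62.2% for the 10 and 58.3% for all promoters, and GC-rich sequence holds more GC boxes by its composition. A match is a description of letters, and binding was not measured.

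Of 4 ATP-Mg/phosphate carriers, 3 were above 1 TPM. SLC25A24 was measured at 45.7, 42.3 and 41.4 TPM, SLC25A23 at 35.6, 33.7 and 30.5 TPM and SLC25A25 at 17.5, 18.0 and 14.8 TPM. SLC25A24 was 1.28, 1.26 and 1.36 times SLC25A23, and SLC25A23 was 2.04, 1.87 and 2.06 times SLC25A25, differences larger than their spread between replicates. Per coding base the 2 ratios were 1.56 and 1.95, in the same order. By the median length of the protein-coding transcripts, the order of SLC25A24 and SLC25A23 turned, to a ratio of 0.401. The ratio of SLC25A23 to SLC25A25 became 7.11 by that length. For SLC25A23 that median is 861 bases, shorter than its coding sequence of 1404 bases. Also, 10.6% of the 100-base windows of SLC25A23 were found elsewhere, mostly in the non-coding gene ENSG00000243276, which had 0 reads. Of the canonical transcript of SLC25A25, 19.3% overlaps exons of SLC25A25-AS1 on the opposite strand. That gene had 106, 155 and 64 reads, beside 359, 381 and 259 for SLC25A25. The strand setting is not given, and the part of SLC25A25-AS1 in the reads of SLC25A25 was not tested. The fourth member, SLC25A41, a short relative that lies 2299 bases from SLC25A23 on chromosome 19, had 4, 1 and 0 reads, with a mean of 0.194 TPM.

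SLC25A3, the phosphate carrier that supplies ATP synthase, was measured at 272, 255 and 237 TPM, from 8724, 8405 and 6457 reads. It had more reads than SLC25A5 in every replicate and less TPM. SLC25A5 was 3.28, 3.27 and 3.10 times SLC25A3 in TPM, a difference larger than the spread. The deposited values divide the reads of SLC25A3 by a transcript of 6087 bases, while its median protein-coding transcript has 1364 bases and its coding sequence 1083. Per coding base SLC25A5 was at 0.836 of SLC25A3, and by the median protein-coding transcript at 0.720. With that length SLC25A3 came first in the family, at 577 ± 19.9 TPM, before SLC25A5 at 416 ± 24.3 TPM (SD, n = 3 each). Which of these 2 carriers was the higher cannot be told from the deposited values alone.

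**Figure D3:**
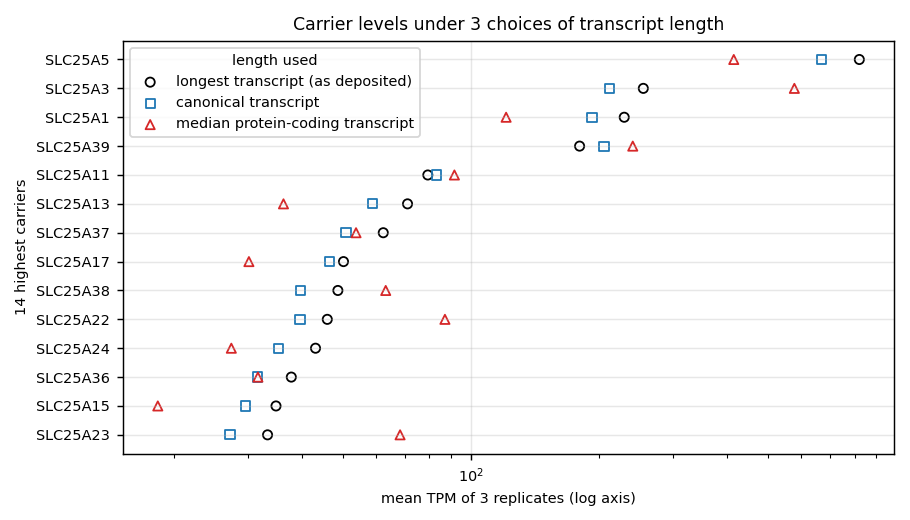
Mean TPM of the 14 highest carriers on a log axis under 3 choices of gene length. Circles are the deposited values, which use the longest transcript, squares use the canonical transcript and triangles the median protein-coding transcript. With the median protein-coding transcript SLC25A3 passed SLC25A5. By mean, SLC25A39 passed SLC25A1 with both other lengths, at 206 ± 33.8 against 193 ± 22.3 TPM by the canonical transcript (SD, n = 3 each). The median of SLC25A39, 839 bases, is shorter than its coding sequence of 1077 bases.

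Citrate and dicarboxylate carriers link the citric acid cycle to the cytosol, and all 4 were above 1 TPM. SLC25A1, which exports citrate for lipid synthesis, was measured at 234, 256.4 and 199 TPM. SLC25A3 was 1.16, 0.995 and 1.19 times SLC25A1, so these neighbours changed order and did not differ beyond their spread, while SLC25A3 was 3.68 times SLC25A1 per coding base and 4.79 times by the median protein-coding transcript. SLC25A11, the oxoglutarate-malate carrier of the malate-aspartate shuttle, was measured at 81.3, 95.2 and 61.3 TPM. SLC25A1 was 2.88, 2.69 and 3.24 times SLC25A11, and SLC25A11 was 7.15, 10.2 and 6.19 times SLC25A10, both larger than the spread. By the median protein-coding transcript these ratios were 1.34 and 17.9.

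SLC25A10, the carrier of malate and succinate against phosphate, was measured at 11.4, 9.35 and 9.91 TPM. Of its canonical transcript, 62.9% lies in exons of ENSG00000262660, a protein-coding gene on the same strand that had 0 reads. Per base that is not shared, 725 of 1946, SLC25A10 was at 27.4 ± 2.81 TPM (SD, n = 3), or 2.68 times the deposited value. This holds only if no counted read came from the shared exons, which was not tested, and is too high otherwise. SLC25A21, the oxodicarboxylate carrier of lysine and tryptophan breakdown, was the lowest of the 36 at 2.64, 1.90 and 1.21 TPM. It rested on 54, 40 and 21 reads and had the highest coefficient of variation, 37.4%. On the opposite strand, 45.4% of its canonical transcript overlaps exons of other genes, PAX9 and SLC25A21-AS1 among them, and the strand setting of the counting is not given in the sources used here.

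Both aspartate-glutamate carriers were measured, the step of the malate-aspartate shuttle that exports aspartate. SLC25A13 (citrin), the form typical of liver, was measured at 75.0, 66.6 and 71.5 TPM and SLC25A12 (aralar), the form typical of brain and muscle, at 29.7, 30.0 and 27.7 TPM. SLC25A13 was 2.53, 2.22 and 2.58 times SLC25A12, larger than the spread, and 1.99 times per coding base. The coding sequences were 71.5% identical, with a longest shared run of 29 bases.

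Of 7 amino acid carriers, 5 were above 1 TPM. SLC25A38, which brings in glycine for heme synthesis, was measured at 53.3, 51.7 and 41.1 TPM, and SLC25A22, a glutamate carrier, at 52.6, 50.3 and 35.1 TPM. SLC25A38 was the higher in every replicate, but the difference was 0.10 ± 0.12 on the log2 scale (SD, n = 3) and did not exceed its spread. The order turned with length, to a ratio of SLC25A38 to SLC25A22 of 0.855 per coding base and 0.732 by the median protein-coding transcript. SLC25A15, the ornithine carrier of the urea cycle, was measured at 36.2, 34.6 and 33.7 TPM. SLC25A44, a carrier of branched-chain amino acids, was measured at 31.9, 34.5 and 28.9 TPM and SLC25A29, a carrier of basic amino acids, at 4.48, 5.89 and 4.53 TPM. Per coding base SLC25A15 was at 0.654 of SLC25A44, and by the median protein-coding transcript at 0.569. By the canonical transcript SLC25A44 was at 52.1, SLC25A15 at 29.5 and SLC25A29 at 9.17 TPM, so the order of SLC25A15 and SLC25A44 depends on length.

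The remaining 2 amino acid carriers are the paralogs of members above. SLC25A18, the second glutamate carrier, was measured at 0.697, 1.05 and 0.910 TPM from 9, 14 and 10 reads, and was the only carrier with replicates on both sides of 1 TPM, 1 of 48 beside 2.85% of protein-coding genes. Over all replicates its 33 reads have an exact Poisson interval (95%, counting error only) from 22.7 to 46.3 reads. SLC25A22 was 75.5, 47.7 and 38.5 times SLC25A18, 59.8 times per coding base and 174 times by the median protein-coding transcript. That median is 746 bases for SLC25A22, shorter than its coding sequence of 969 bases. SLC25A2, the second ornithine carrier and a gene of 1 exon, had 0, 0 and 2 reads, although its coding sequence is 87.6% identical to that of SLC25A15. By the mean of the deposited values, 1 gene of each of these pairs was above the cutoff and the other below it. With protein-coding genes scaled to the same sum in each replicate, SLC25A18 was above it, at 1.03 TPM.

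The pyrimidine nucleotide carriers, which supply mitochondrial DNA and RNA synthesis, were SLC25A36 at 43.0, 33.9 and 36.6 TPM and SLC25A33 at 12.0, 12.5 and 9.48 TPM. SLC25A36 was 3.57, 2.71 and 3.87 times SLC25A33, larger than the spread, 5.25 times per coding base and 5.56 times by the median protein-coding transcript. Of the 100-base windows of SLC25A33, 14.6% occur elsewhere, mostly in the processed pseudogene ENSG00000226268, which had 19, 16 and 10 reads. SLC25A33 had 245, 261 and 164 reads, and the part of reads lost to the copy was not tested.

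Of the relatives of the uncoupling proteins, SLC25A30 was measured at 15.6, 14.4 and 11.6 TPM, SLC25A14 at 14.98, 10.5 and 9.97 TPM and SLC25A27 at 4.62, 5.13 and 5.05 TPM. SLC25A30 was 1.04, 1.37 and 1.17 times SLC25A14, 4.67 times per coding base and 10.1 times by the median protein-coding transcript, and SLC25A14 was 3.24, 2.05 and 1.98 times SLC25A27. The level of SLC25A30 depended most on length, with 73.0 TPM by the median protein-coding transcript of 582 bases against 13.9 TPM by the longest transcript of 6041 bases. That median is shorter than its coding sequence of 873 bases, so 73.0 TPM may be too high. The ratio of SLC25A14 to SLC25A27 turned to 0.672 by the median protein-coding transcript, but was 1.42 per coding base. For SLC25A27 that median is 659 bases, shorter than its coding sequence of 969 bases. The uncoupling proteins proper carry other symbols and are no members. UCP1 was at 0.461 TPM, UCP2 at 0.0826 TPM and UCP3 at 0.836, 1.87 and 0.295 TPM, with a mean of 1.00 TPM at the cutoff and 1 replicate above it.

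Of 10 cofactor carriers, 8 were above 1 TPM, with means between 4.20 TPM for SLC25A16 and 180 TPM for SLC25A39. SLC25A39, which carries glutathione, was measured at 190, 206 and 145 TPM and its paralog SLC25A40 at 15.4, 14.01 and 11.8 TPM. SLC25A39 was 12.3, 14.7 and 12.3 times SLC25A40, larger than the spread, 6.73 times per coding base and 34.6 times by the median protein-coding transcript. That median is 839 bases for SLC25A39, shorter than its coding sequence of 1077 bases. SLC25A17, the member found in peroxisomes, where it carries coenzyme A, FAD and NAD, was measured at 49.9, 49.9 and 50.8 TPM. Its coefficient of variation of 1.03% was the lowest of the 36 carriers. It was the only carrier above 10 TPM with its highest value in replicate 3, beside 3.28% of protein-coding genes at that level. Both hold for the deposited scale, in which protein-coding genes held 915250, 897893 and 796210 TPM in replicates 1, 2 and 3. The spread of SLC25A17 with protein-coding genes scaled to the same sum is not given here.

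SLC25A26, which carries S-adenosylmethionine for mitochondrial methylation, was at 8.23 ± 1.18 TPM (SD, n = 3). By the canonical transcript of 2035 bases in place of the longest of 8333, SLC25A26 was at 27.6 TPM. SLC25A42, a coenzyme A carrier, had 10, 9 and 13 reads and stayed below 1 TPM at 0.582, 0.510 and 0.890.

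SLC25A32, the carrier of folate and FAD, was measured at 4.47, 4.29 and 4.56 TPM from 68, 67 and 59 reads. It was the carrier with most shared bases, since 88.1% of its canonical transcript lies in exons of ENSG00000285982 on the same strand, a gene with 0 reads. Per base that is not shared, 344 of 2891, its level was 37.6, 36.0 and 38.3 TPM, 8.40 times the deposited value. This too holds only if no counted read came from the shared exons, which was not tested. Beside the deposited values of the other cofactor carriers, that level was below SLC25A39 and SLC25A17 and above the rest, so its place near the bottom of the 36 depends on the bases it is divided by. On the opposite strand, 11.2% of its canonical transcript overlaps exons of DCAF13, which had 2327, 2215 and 1778 reads. The strand setting is not given, and the part of DCAF13 in the reads of SLC25A32 was not tested.

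The NAD carriers show a copy on another chromosome. SLC25A51 was measured at 31.6, 28.3 and 22.3 TPM from 311, 286 and 187 reads, and SLC25A52, a gene of 1 exon, had 0, 2 and 0 reads. Their coding sequences are 97.6% identical and differ at 21 aligned bases. The longest run without a difference is 169 bases, at chr9:37887667-37887835 in SLC25A51 and chr18:31759778-31759946 in SLC25A52 (hg38, minus strand in both). It is printed 5′ to 3′ because a read inside it fits both genes.
SLC25A51 and SLC25A52: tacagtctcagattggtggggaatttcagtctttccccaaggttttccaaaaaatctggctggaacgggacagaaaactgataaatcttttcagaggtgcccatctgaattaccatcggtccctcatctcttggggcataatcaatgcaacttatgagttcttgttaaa

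Of the 100-base windows, 17.2% of SLC25A51 and 12.6% of SLC25A52 were found elsewhere, and at 50 bases 38.6% and 31.7%. In addition, 10.4% of the canonical transcript of SLC25A51 lies in exons of ENSG00000255872 on the same strand, a gene with 1, 5 and 2 reads. How the counting treated reads with several places is not given in the sources used here. Most windows of 100 bases were found at 1 place in both genes.

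**Figure D4:**
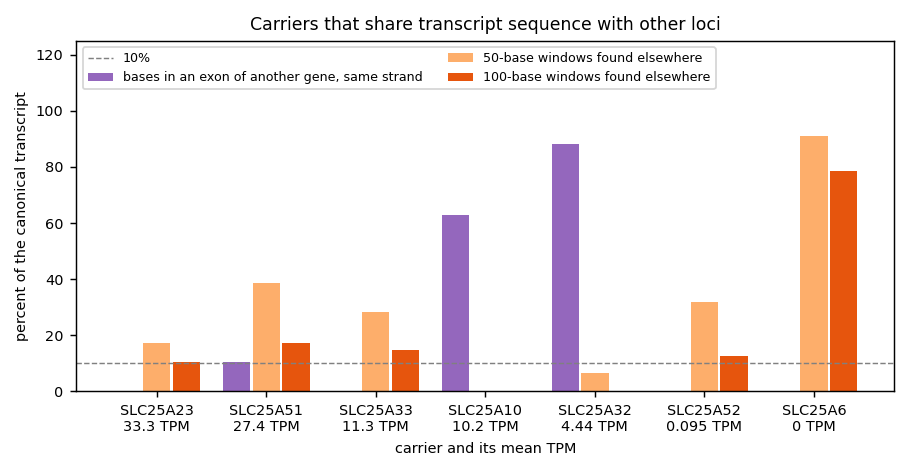
The 7 carriers with an identical copy, over 10% of bases in same-strand exons of another gene or over 10% of windows of 100 bases found elsewhere, ordered by mean TPM; windows of 50 bases are drawn but did not choose them. Bars give the percent of bases in exons of another gene on the same strand and the percent of windows of 50 and 100 bases found at another place of hg38, and the dashed line marks 10%. SLC25A10, SLC25A32 and SLC25A51 shared exons, and SLC25A23, SLC25A33, SLC25A51, SLC25A52 and SLC25A6 had copies elsewhere.

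Iron is brought in by the mitoferrins for heme and iron-sulfur cluster synthesis. SLC25A37 (mitoferrin-1), known from red cell precursors, was measured at 64.7, 67.8 and 54.4 TPM, and SLC25A28 (mitoferrin-2), the widely expressed form, at 25.8, 26.5 and 24.5 TPM. SLC25A37 was 2.50, 2.55 and 2.22 times SLC25A28, larger than the spread, and 4.91 times per coding base. SLC25A20, which exchanges acylcarnitine for carnitine in fatty acid oxidation, was measured at 20.4, 22.4 and 20.04 TPM.

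Of 8 members with no substrate assigned here, 3 were above 1 TPM. SLC25A46, a member of the outer membrane linked to mitochondrial shape, was at 27.5 ± 2.64 TPM, SLC25A43 at 26.9 ± 5.08 TPM and SLC25A35 at 2.23 ± 0.735 TPM (SD, n = 3 each). SLC25A35 rested on 24, 46 and 25 reads. SLC25A43 lies 13943 bases from SLC25A5 on chromosome X and was at a small share of its neighbour's level. SLC25A53 had 26, 25 and 19 reads and SLC25A45 had 22, 27 and 22, both below 1 TPM in every replicate. SLC25A45 passed 1 TPM, at 1.70 TPM, by the canonical transcript of 2261 bases in place of the longest of 7118. SLC25A34 had 1, 6 and 0 reads, SLC25A48 had 0, 1 and 0, and SLC25A47, a gene known from liver that lies 16791 bases from SLC25A29, had 0 reads, which allows up to 0.321, 0.312 and 0.377 TPM.

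**Figure D5:**
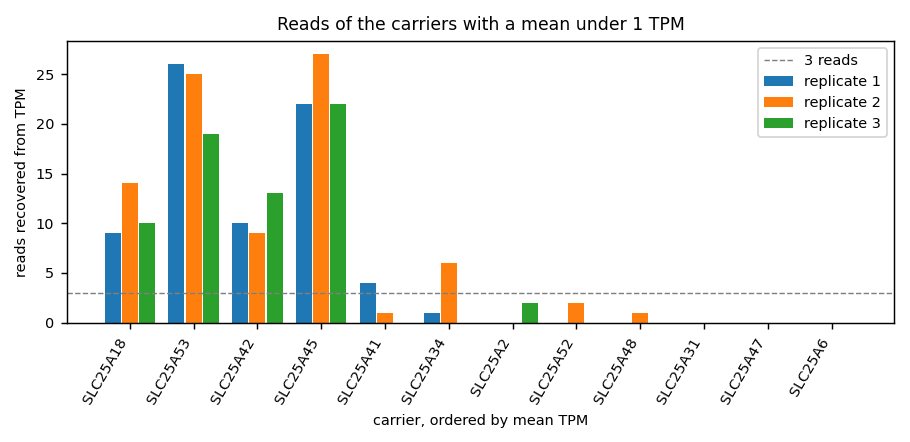
Reads recovered in each replicate for the 12 carriers with a mean under 1 TPM, on a linear axis, with a dashed line at 3 reads. SLC25A18, SLC25A53, SLC25A42 and SLC25A45 had between 9 and 27 reads in every replicate, and the other 8 had at most 6, with SLC25A31, SLC25A47 and SLC25A6 at 0.

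In all, 3 carriers (6.25%) had 0 reads in every replicate, against 26.1% of protein-coding genes. Of the 12 carriers below 1 TPM, 2 shared sequence in a way that could remove reads, SLC25A6 and SLC25A52, and 10 did not by the limits used, which were an identical copy, over 10% of bases in same-strand exons of another gene or over 10% of windows of 100 bases found elsewhere. SLC25A53 was under them with 3.41% of its windows of 100 bases, but 12.0% of its windows of 50 bases were found elsewhere, mostly at TMSB15B, which had 5, 15 and 2 reads. Of the 36 above it, 5 did, SLC25A10, SLC25A23, SLC25A32, SLC25A33 and SLC25A51. Overlap on the opposite strand was found for 18 carriers and was not counted among these.

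Between replicates, the carriers at or above 1 TPM had a median SD of log2(TPM + 1) of 0.17, and protein-coding genes at the same cutoff 0.16. The median coefficient of variation was 11.8% in both. The lowest of the 3 values was in replicate 3 for 27 of the 36 carriers (75.0%) and for 78.5% of protein-coding genes. The median log2 ratio of replicate 3 to replicate 1 was -0.21 for carriers and -0.24 for protein-coding genes, and -0.01 for carriers once protein-coding genes were scaled to the same sum in each replicate. Ordered by mean, the 36 carriers form 35 neighbouring pairs, of which 15 kept their order in every replicate and 14 differed by more than the spread. Most neighbours, such as SLC25A12 and SLC25A46 or SLC25A30 and SLC25A40, could therefore not be ranked by the deposited values. Ordered anew by other lengths, 13 neighbouring pairs kept their order by the canonical transcript and 20 by the median protein-coding transcript. By the canonical transcript SLC25A30 was at 18.7 ± 2.52 and SLC25A40 at 11.2 ± 1.37 TPM (SD, n = 3 each).

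The other genes of the route were read from lists of 28 genes. MTCH2 at 144 ± 10.5 TPM and MTCH1 at 54.3 ± 7.68 TPM, relatives of the family in the outer membrane, were above 1 TPM. All 7 other inner membrane transporters listed were above it, from 9.81 TPM for SFXN2 to 155 TPM for SFXN1, a serine transporter, with the pyruvate carrier subunits MPC1 and MPC2 at 81.2 ± 4.84 and 74.5 ± 5.64 TPM. All 3 outer membrane channels were above it, with VDAC1 at 1015 ± 98.4 TPM, VDAC3 at 339 ± 24.2 TPM and VDAC2 at 200 ± 17.7 TPM (SD, n = 3 each). All 13 genes of carrier import were above it, from 19.1 TPM for TIMM8A to 370 TPM for TOMM20. TIMM22, the channel that inserts carriers into the inner membrane, was at 32.5 ± 4.85 TPM (SD, n = 3), and TOMM70, the receptor that binds them at the outer membrane, at 93.6 ± 8.02 TPM.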

How the data were processed

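RNA-seq libraries depleted of ribosomal RNA were made from 3 replicates of untreated MCF10A cells. The authors deposited 1 table of TPM values, mapped to hg38 and counted with Seq2science by the study's methods. The submitters' processing notes name STAR, fastp and MultiQC, and the gene length and strand setting are not given in the sources used here. Of 62754 genes, 62700 were found in GENCODE release 44, and 0 value columns were left unused. TPM times the longest transcript, less 1 base per exon, divided by its smallest step gave whole reads, and the smallest step was taken as 1 read. Identical genes on X and Y were counted once. For 0 reads, the TPM that 3 reads would give is printed as an upper limit, and it covers counting error only. Shared bases are those of the canonical transcript that lie in same-strand exons of another gene, and windows of 50 and 100 bases were searched on both strands of hg38. A difference was called larger than the spread where its mean within-replicate log2 value exceeded its SD and had 1 sign in all replicates. Every carrier is accounted for by the naming rule, except that 1 is not reported here by its own values. The carriers, lists, motifs and cutoffs were chosen with earlier results of these data known, and the protein features of the plan were not computed. Read recovery and the window search were tested on simulated data. The software was biopython 1.88, matplotlib 3.10.9, scipy 1.17.1, pandas 2.3.3 and numpy 2.4.6 on Python 3.11.15.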

Additional observations from a re-analysis of the deposited data

How the results depend on the processing

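The count of 36 carriers at or above 1 TPM was 33 without carriers that share exons on the same strand or have an identical copy, 31 when carriers with over 10% of windows of 100 bases elsewhere were also left out, 40 at a cutoff of 0.5 TPM and 35 at 2 TPM. It was 37 on the protein-coding scale, which adds SLC25A18, and 37 by the canonical and by the median protein-coding transcript, which add SLC25A45. Over protein-coding genes the percent was 59.7% at 0.5 TPM, 53.4% at 2 TPM, 55.3% when required in every replicate and 57.3% on a scale where protein-coding genes have the same sum in each replicate (protein-coding scale). The count on both sides of the cutoff, 1, was 0 at 0.5 TPM, 2 at 2 TPM and 2 with the protein-coding scale. The summed TPM was 2685 with the protein-coding scale, 2115 by canonical transcript and 2242 by the median protein-coding transcript, a length added after seeing the data, as were the level per unshared base, the count of 31 and the group shares by other lengths. Leaving out each replicate in turn gave 36 carriers each time, 0 (without replicate 2) to 1 carrier on both sides, a sum of 2262 to 2466 TPM, 98.2% to 98.3% of ADP/ATP carrier TPM for SLC25A5, 56.4% to 57.0% of protein-coding genes, 19 to 23 neighbours in 1 order (23 without replicate 2, with fewer replicates to keep it) and a median SD of 0.0798 (without replicate 3) to 0.17. The canonical transcript moved 5 carriers over 1.5-fold and the median protein-coding transcript 33 of 48. No paired analysis was possible because there is only 1 condition.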
